A study of Homo sapiens with 3 samples.

Results

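Heat shock proteins are molecular chaperones that bind unfolded or newly made proteins and help them to fold. In the cytosol Hsp70 works as a cycle with a J-domain partner (Hsp40), which delivers clients and stimulates ATP hydrolysis, and with a nucleotide exchange factor of the Hsp110 family, which resets it. Hsp90 acts later on many signalling proteins, small heat shock proteins hold unfolded clients without ATP, and Hsp60 with Hsp10 folds proteins inside mitochondria. Some of these genes are switched on by heat shock factor 1 when misfolded protein builds up, and others are expressed at all times. The group described here was the 10 genes HSPA1A, HSPA1B, HSPA8, DNAJB1, HSPH1, HSPB1, HSP90AA1, HSP90AB1, HSPD1 and HSPE1, taken by gene name. Of these, 6 were listed in the tables of all 3 libraries, among 8812 transcripts listed in all 3. HSPA8, HSP90AB1, HSPD1 and HSPE1 were not listed in the tables used and were not analysed here.

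The libraries are ribosome profiling libraries of HEK293T, a cell line derived from human embryonic kidney that expresses SV40 large T antigen. Ribosome profiling reads the short pieces of mRNA left after nuclease digestion because a ribosome covered them (ribosome-protected fragments, RPFs). Untreated A and Untreated B came from cells without drug, and G418 A came from cells given 500 µg/mL of the aminoglycoside G418 for 24 hours. G418 binds the decoding centre of the ribosome and lowers the accuracy with which codons and stop codons are read. The treated group was 1 library, so its values carry no spread between cultures, and in every test it was assumed to vary like the untreated libraries. RPFs on a coding sequence (CDS) depend on how much mRNA was present and on how heavily it was translated, and the tables used here cannot separate these. In a bulk culture, fewer cells that use a gene and less RPF per cell cannot be told apart either.

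The RPM scale, in which reads are scaled to a fixed library total, rested on 5857230 (Untreated A), 9477972 (Untreated B) and 7216039 (G418 A) reads. All 5 markers of the HEK293 line that were looked up (NEFL, NEFM, VIM, KRT8 and KRT18) were listed in every library. Of 6 markers of other cell types, PTPRC, CD3E, HBB, ALB and CDH5 were not listed, and the collagen gene COL1A1 was listed at 34.8, 46.7 and 37.6 RPM in Untreated A, Untreated B and G418 A. A gene can be unlisted without being silent. The study also discarded transcripts that overlapped nearby transcripts or whose UTRs overlapped pseudogenes. Why the markers and the heat shock genes named above were unlisted was not tested. All 5 HEK293 markers were lower in G418 A than in both untreated libraries, with a median log2 change of -0.38 in the CDS test described later. The keratin KRT8 passed that test (680 and 755 RPM against 442 RPM, edgeR adjusted p = 0.00485), in which 0.563% of all transcripts tested were called lower. At an unadjusted p under 0.05, 3 of the 5 were lower. The share of all transcripts at that threshold, or below both untreated libraries, is not given. Their part in the results on the chaperones was not tested.

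The stop codon regions of the 6 listed genes are shown because the largest differences between libraries lay there. Each line gives 15 nt of CDS, the normal termination codon (NTC) and 12 nt of 3′UTR, 5′ to 3′ on the sense strand of hg38. The 4-nt stop signal, which is the NTC and the base after it, is in capitals.
HSPA1A (chr6:31817665-31817694, plus strand): attgaggaggtagatTAGGggcctttccaa
HSPA1B (chr6:31829859-31829888, plus strand): attgaggaggtggatTAGGggcctttgttc
DNAJB1 (chr19:14515928-14515957, minus strand): caggttcttccaataTAGCtatctgagctc
HSPH1 (chr13:31137306-31137335, minus strand): aatatggacttggacTAGAtaaccttaaat
HSPB1 (chr7:76304156-76304185, plus strand): gagactgccgccaagTAAAgccttagcccg
HSP90AA1 (chr14:102081700-102081729, minus strand): atggaagaagtagacTAATctctggctgag

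UAG ended 4 of these reading frames and UAA ended 2. In every case the NTC lay in the last exon of the listed transcript, which for HSPA1A and HSPA1B is the only exon. The next in-frame stop codon (3′TC) closed a region of 57 nt in HSPA1A, 117 nt in HSPA1B, 24 nt in DNAJB1, 51 nt in HSPH1, 102 nt in HSPB1 and 18 nt in HSP90AA1, counted from the base after the NTC to the end of the 3′TC. The first 6 nt of each region were not counted, which left 12 nt in HSP90AA1 and 18 nt in DNAJB1. The 3′TC, where ribosomes that read through stop again, lies inside the counted stretch and takes up more of a short one.

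HSPA1A and HSPA1B encode the stress-inducible Hsp70 and lie near each other in the major histocompatibility complex region of chromosome 6. Their reading frames had the same length, 1923 nt without the stop codon, and differed at 4 positions. A 28-nt read could therefore seldom be placed on a single copy. Of the 1893 read positions counted in the HSPA1A CDS, 1818 (96.0%) gave a 28-nt sequence also present in HSPA1B. The windows printed above differed at 5 of 30 positions, and from the NTC on the first 11 bases were the same. Past that point the copies diverge, and 0 of 51 read positions in the HSPA1A readthrough region and 0 of 111 in that of HSPA1B were shared with any other annotated gene. RPFs in the readthrough regions could thus be assigned to a copy and those in the CDS mostly could not, so the CDS of the pair is also given as a sum.

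The CDS of HSPA1A held 742 RPM in Untreated A, 983 RPM in Untreated B and 1354 RPM in G418 A, and values are given in this order throughout. The CDS of HSPA1B held 772, 1008 and 1394 RPM. G418 A was the highest library for both. Reads were placed on the copies in nearly the same proportion throughout, with 1.04, 1.03 and 1.03 HSPA1B reads for each HSPA1A read. With most CDS read positions shared, this ratio does not measure the copies separately. Summed, the pair rose from 1752 RPM ± 337 (SD, n = 2) in untreated cells to 2748 RPM in G418 A, a 1.57-fold difference. The 2 untreated libraries themselves differed by 1.31-fold, and G418 A stood 1.82-fold above Untreated A and 1.38-fold above Untreated B.

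Both copies passed the test of CDS reads and the other 4 genes did not. HSPA1A rose by 0.65 on the log2 scale (SE 0.16, edgeR quasi-likelihood adjusted p = 0.00506) and HSPA1B by 0.65 (SE 0.16, adjusted p = 0.00545). Because the reads of the pair are shared, these count as 1 observation, and the sum gave the same change (log2 0.65, SE 0.16, adjusted p = 0.00479). By the same test 3.24% of the 5684 transcripts were called higher. The call was lost with the DESeq2 Wald test, which called 0.334% of transcripts higher and gave adjusted p-values of 0.093 for HSPA1A and 0.0866 for HSPA1B. It was also lost when the test was limited to transcripts averaging 500 CDS reads or more (adjusted p-values of 0.0784 and 0.0776, with 1.20% of 2408 transcripts called higher).

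**Figure D1:**
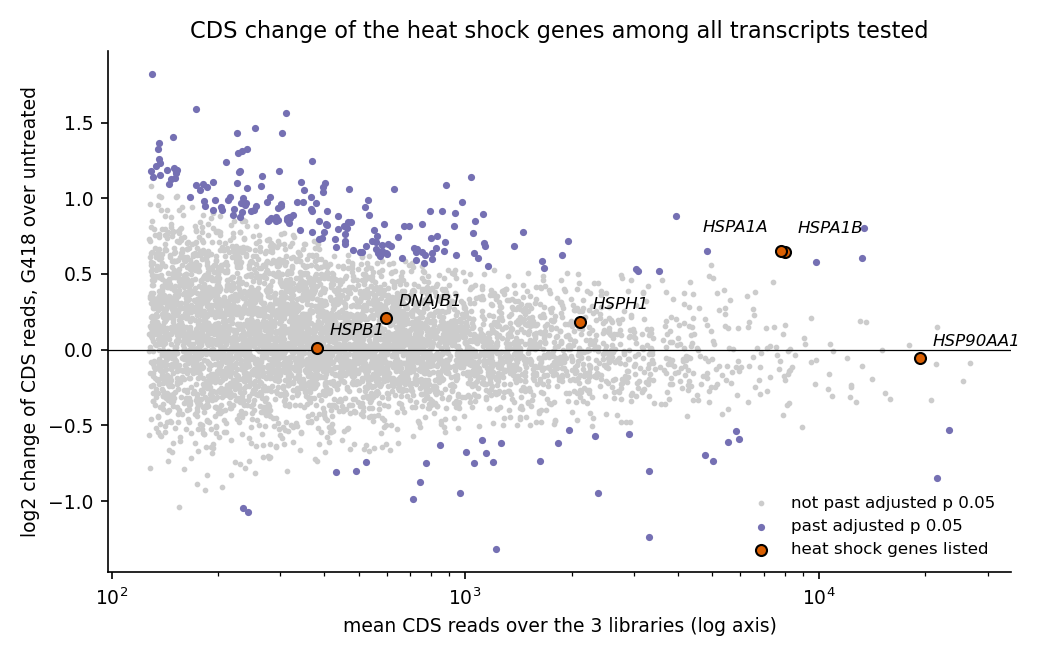
Log2 change of CDS reads in G418 over untreated cells (vertical axis) against the mean number of CDS reads over the 3 libraries (horizontal log axis), 1 point per transcript for the 5684 tested. HSPA1A and HSPA1B, at 0.65, lie among the transcripts past the threshold (adjusted p = 0.00506 and 0.00545, edgeR quasi-likelihood), while DNAJB1, HSPH1, HSPB1 and HSP90AA1 lie between -0.06 and 0.21.

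The 5′UTRs tell the copies apart better than the CDS does. In the reference models 7 of 196 read positions of HSPA1A and 7 of 195 of HSPA1B were shared, but the tables count a longer 5′UTR for HSPA1A (287 nt), and its additional stretch was not checked for sharing. RPFs on the 5′UTR of HSPA1B measured 29.0, 49.6 and 79.5 RPM in Untreated A, Untreated B and G418 A. Those on the 5′UTR of HSPA1A measured 16.0, 25.4 and 33.0 RPM. Both were highest in G418 A, 2.02-fold above the untreated mean for HSPA1B and 1.59-fold for HSPA1A, and the libraries stood in the same order as in the CDS. HSPA1B had 170, 470 and 574 reads there and HSPA1A 94, 241 and 238. No test was made on the 5′UTR.

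**Figure D2:**
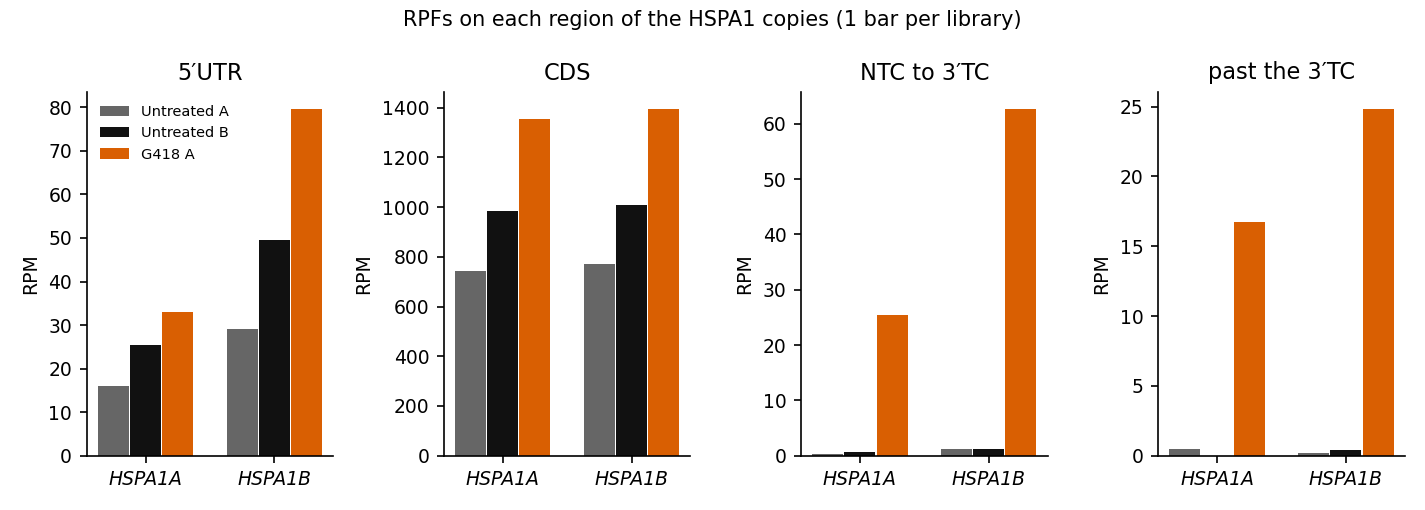
RPFs (RPM, vertical axes, each from 0) on the 5′UTR, CDS, NTC-to-3′TC region and 3′UTR past the 3′TC of HSPA1A and HSPA1B, with 1 bar per library. CDS reads mostly cannot be assigned to a copy, and the CDS bars are nearly equal in each library (742 and 772 RPM in Untreated A, 1354 and 1394 RPM in G418 A). The 5′UTR and readthrough bars are taller for HSPA1B, whose counted readthrough region is also the longer (111 nt against 51 nt).

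HSPA1L, another Hsp70 gene of this cluster that is not among the 10, measured 34.8, 54.4 and 66.0 RPM over its CDS. Its libraries were in the same order as those of HSPA1A and HSPA1B, and its reads were 2.30%, 2.74% and 2.40% of theirs. HSPA1L shared 135 of 1893 CDS read positions (7.13%) with the pair, and the part of shared reads in its values was not tested. Its change did not pass the test (log2 0.55, SE 0.23, adjusted p = 0.188).

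DNAJB1, the J-domain partner of inducible Hsp70, measured 64.9, 83.8 and 86.1 CDS RPM in Untreated A, Untreated B and G418 A. G418 A was above both untreated libraries but only 1.03-fold above Untreated B, while Untreated B was 1.29-fold above Untreated A. The change did not pass the test (log2 0.21, SE 0.20, adjusted p = 0.729), and its approximate 95% interval ran from -0.19 to 0.60.

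HSPH1, the Hsp110 that exchanges nucleotide on Hsp70, measured 306, 243 and 312 CDS RPM. G418 A was the highest library, 1.02-fold above Untreated A. The log2 change was 0.18 (SE 0.17, adjusted p = 0.693). HSPB1 (Hsp27), a small heat shock protein, measured 46.4, 53.4 and 50.4 CDS RPM, so that the G418 library lay between the untreated ones. Its log2 change was 0.01 (SE 0.24, adjusted p = 0.987) and turned negative with TMM or DESeq2 scaling of the libraries. HSP90AA1, the inducible cytosolic Hsp90, was the most densely occupied of the 6, at 2759, 2498 and 2529 CDS RPM, again with G418 A between the untreated libraries. Its log2 change was -0.06 (SE 0.17, adjusted p = 0.925).

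Per length of CDS the order of the genes in untreated cells was HSP90AA1, with 1274 and 1153 RPKM (RPM per kilobase), then HSPA1B with 408 and 532 and HSPA1A with 392 and 519. HSPH1 followed with 120 and 95.5 RPKM, HSPB1 with 79.4 and 91.3, and DNAJB1 with 65.5 and 84.6. The values of HSPB1 and DNAJB1 overlapped between libraries, as did those of the HSPA1 copies. In G418 A the 3 leading genes kept their places, at 1168, 736 and 715 RPKM, and HSPA1B moved from rank 327 and 226 among the transcripts tested in Untreated A and B to rank 153. The CDS of several genes is shared in part with pseudogenes, at 62.8% of read positions for HSP90AA1, 31.8% for HSPB1 and 21.4% for DNAJB1, against 0 of 2544 positions for HSPH1, so that some of their reads may be credited elsewhere.

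**Figure D3:**
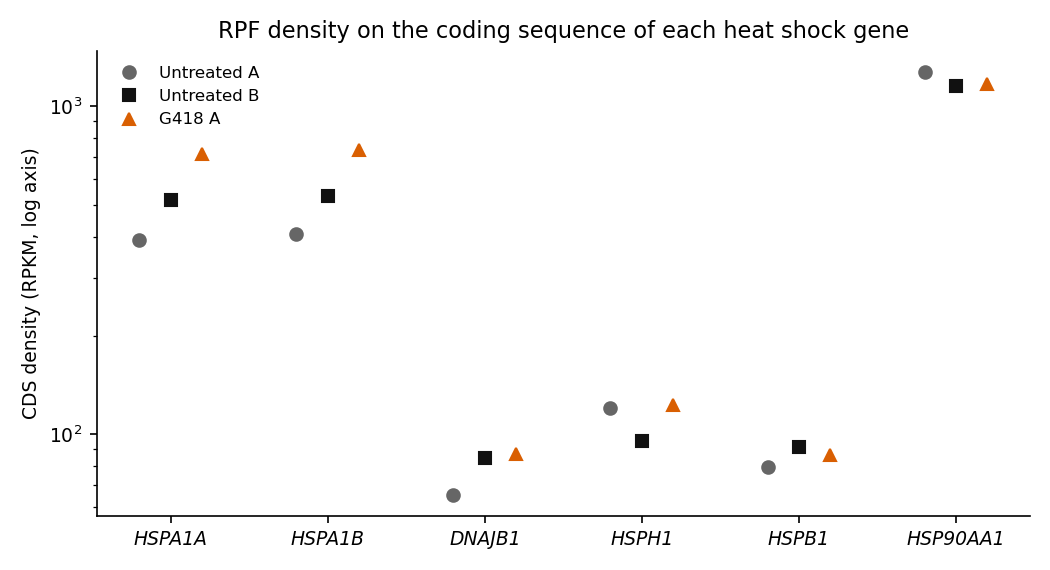
CDS density (RPKM, log vertical axis) of the 6 listed genes, with 1 point per library (circles Untreated A, squares Untreated B, triangles G418 A). The triangle stands clear of both untreated points for HSPA1A and HSPA1B (715 and 736 RPKM) and close to or between them for the other 4 genes.

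Over the 6 genes the median log2 change was 0.20, against 0.07 over all transcripts tested, and without the HSPA1 pair it was 0.10. G418 A was above both untreated libraries in 4 of the 6 (HSPA1A, HSPA1B, DNAJB1 and HSPH1), beside 46.3% of all transcripts tested. HSPA1A and HSPA1B share their CDS reads and are 1 observation, but enter the 6-gene median and this count separately. DNAJB1 was only 1.03-fold above Untreated B and HSPH1 only 1.02-fold above Untreated A.

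Lists of related chaperone genes were read in the same fit, in which 3.24% of all transcripts were called higher. Of other Hsp70 and Hsp110 genes, 1 of 5 tested rose, HYOU1, an Hsp110 relative of the endoplasmic reticulum (201, 180 and 286 RPM, log2 0.59, adjusted p = 0.0176). Of other J-domain proteins, 1 of 13 rose, DNAJC3, which is also found in the endoplasmic reticulum (64.0, 54.0 and 94.7 RPM, log2 0.69, adjusted p = 0.0265). Of other Hsp90 genes and co-chaperones, 2 of 13 rose. These were HSP90B1, the Hsp90 of the endoplasmic reticulum (1518, 1391 and 2536 RPM, log2 0.80, adjusted p = 0.000166), and STUB1, a ubiquitin ligase that works with Hsp70 and Hsp90 (35.2, 42.6 and 80.2 RPM, log2 1.04, adjusted p = 0.00067). No gene of these 3 lists was called lower. At an unadjusted p under 0.05, 2 of the other Hsp70 and Hsp110 genes were higher and 1 was lower, 3 J-domain proteins were higher, and 2 of the other Hsp90 genes and co-chaperones were higher. The share of all transcripts at that unadjusted threshold is not given, here or in the next paragraph. Counts at an unadjusted p were therefore not compared with a background. With DESeq2, HSP90B1 remained past the threshold (adjusted p = 0.000298), and HYOU1, DNAJC3 and STUB1 did not (adjusted p-values of 0.216, 0.425 and 0.104). Among transcripts averaging 500 CDS reads or more, HSP90B1 passed (adjusted p = 0.014), HYOU1 and DNAJC3 did not (0.0914 and 0.0799), and STUB1 was not in the set.

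Of other targets of heat shock factors, 0 of 12 tested passed edgeR's test in either direction and 1 of 12 had an unadjusted p under 0.05. The largest rise in that list was MRPL18, a mitochondrial ribosomal protein (75.8, 66.2 and 105 RPM, log2 0.56, adjusted p = 0.082), and the largest fall HSPA4, another Hsp110 (620, 561 and 539 RPM, log2 -0.13, adjusted p = 0.806). Of 9 nucleotide exchange factors tested, 0 passed and 2 had an unadjusted p under 0.05, with values from -0.56 in BAG4 (adjusted p = 0.506) to 0.55 in SIL1 (adjusted p = 0.285). HSF1, the main heat shock transcription factor, measured 13.3, 14.2 and 26.7 RPM (log2 0.95, adjusted p = 0.103), and HSF2 105.5, 90.9 and 90.9 RPM (log2 -0.11, adjusted p = 0.879). The only other small heat shock protein tested, HSPB8, had a log2 change of 0.29 (adjusted p = 0.73).

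Heat shock factor 1 binds inverted repeats of a GAA unit, and promoters are shown for the pair that rose and for DNAJB1 and HSP90AA1, which did not pass. RefSeq promoters (GRCh38.p14, 250 bases before to 50 after each start) were present for 9 of the 10 genes and were searched on both strands for GAANNTTC and TTCNNGAA, each of which is its own reverse complement and which may overlap. Of 34796 promoters of this length, 6.79% held GAANNTTC, 7.76% held TTCNNGAA and 0.49% held 3 units in alternation. The stretches run from 120 to 31 bases before the start used by the listed transcript, with matches in capitals.
HSPA1A (chr6:31815423-31815512, plus strand): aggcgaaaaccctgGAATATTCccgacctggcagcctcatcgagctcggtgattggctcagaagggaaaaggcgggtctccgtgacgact
HSPA1B (chr6:31827618-31827707, plus strand): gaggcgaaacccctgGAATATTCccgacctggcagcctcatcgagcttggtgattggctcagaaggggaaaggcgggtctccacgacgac
DNAJB1 (chr19:14518428-14518517, minus strand): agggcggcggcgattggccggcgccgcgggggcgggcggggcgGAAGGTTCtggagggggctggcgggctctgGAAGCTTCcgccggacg
HSP90AA1 (chr14:102087075-102087164, minus strand): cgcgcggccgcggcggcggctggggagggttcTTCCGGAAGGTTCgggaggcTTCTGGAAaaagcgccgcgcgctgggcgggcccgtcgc

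Each HSPA1 copy had a single match in the stretch, DNAJB1 had 2 and HSP90AA1 had 3, of which 2 overlap to make 3 alternating units. The same stretch of HSPB1, which did not pass either, is not printed and had 0 matches. Over whole promoters, 5 of the 6 listed genes held at least 1 unit, and HSP90AA1 alone among them held 3 units in alternation. The only HSPH1 entry held none, but it starts elsewhere than the listed HSPH1 transcript, whose own promoter was not searched. Matching letters do not show binding.

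Readthrough was measured by the ribosome readthrough score (RRTS), defined by the study as RPF density from NTC to 3′TC over that of the CDS and given here in percent. It was higher in G418 A than in both untreated libraries for all 6 listed genes, beside 72.0% of all transcripts tested. In G418 A, HSPA1B and HSPA1A had 76.7% and 69.5%, HSP90AA1 47.5%, HSPH1 37.7% and HSPB1 26.8%, and DNAJB1 reached 115% on few reads. Only the HSPA1 copies passed the test.

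In the same order of libraries, the readthrough region of HSPA1B held 7, 11 and 452 reads. These correspond to an RRTS of 2.64%, 1.96% and 76.7%, the last with an exact Poisson 95% interval of 69.8% to 84.1%. The readthrough region of HSPA1A held 2, 6 and 183 reads, or 1.71%, 2.39% and 69.5% (interval 59.8% to 80.3%). Untreated values were alike in the copies and far below G418 A in each. Such intervals cover counting error only.

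Relative to the untreated mean, the RRTS was 33.3-fold higher for HSPA1B and 33.9-fold higher for HSPA1A. Their log2 changes, given next, were higher than those of 71.7% and 70.6% of all transcripts tested. The median log2 change of readthrough over all transcripts was 3.47. The test with CDS density as offset gave log2 changes of 5.06 (SE 0.98, edgeR adjusted p = 0.000113) and 5.01 (SE 1.31, adjusted p = 0.0156), and 1.83% of the 5684 transcripts were called higher in it. With the same offset DESeq2 called 0% of the 4483 transcripts that had a readthrough read. Its adjusted p was 0.531 for both copies, at unadjusted p-values of 0.0312 for HSPA1A and 0.025 for HSPA1B, and 412 transcripts had an unadjusted p under 0.05. Since the CDS reads behind the 2 ratios are shared, the ratio of the summed pair is the firmer value, at 2.35%, 2.10% and 74.4% (interval in G418 A 68.8% to 80.5%). By number of readthrough reads in G418 A, HSPA1B ranked 4 and HSPA1A 40 among the 5684 transcripts.

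**Figure D4:**
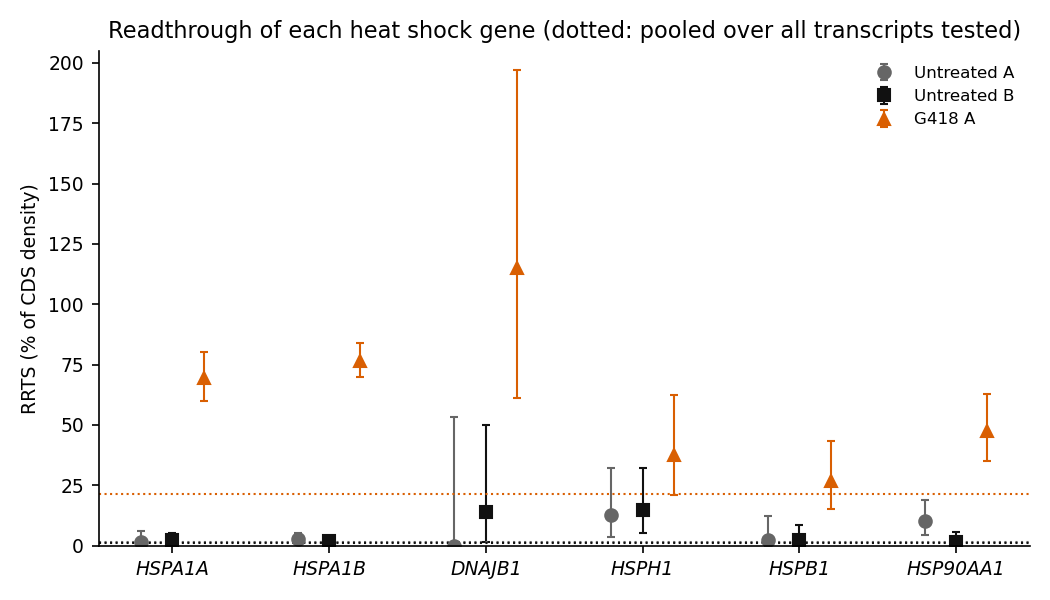
RRTS (percentage of CDS density, vertical axis) of the 6 listed genes, with 1 point per library, exact Poisson 95% intervals as bars and dotted lines for the pooled RRTS of all transcripts tested in each library. In G418 A all 6 points lie above the pooled value of 21.3%, and the intervals of HSPH1 and HSPB1 include it.

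HSP90AA1 had 9, 2 and 48 readthrough reads, or an RRTS of 10.1%, 1.52% and 47.5% (interval in G418 A 35.0% to 63.0%). Its untreated libraries differed by more than those of the other genes with reads in both, and Untreated A had the more reads in spite of its lower depth. The change did not pass the test (log2 3.06, SE 1.97, adjusted p = 0.589). Its counted region of 12 nt is among the shortest, and 222 tested transcripts with that length had a pooled RRTS of 36.1% in G418 A. Of its CDS read positions 62.8% are shared with pseudogenes, against 0 of 12 in its readthrough region. CDS reads credited elsewhere would raise the RRTS and the value past the 3′TC, and this was not tested. The same holds for HSPB1 and DNAJB1, at 31.8% and 21.4% of CDS read positions.

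DNAJB1 had 0, 2 and 13 readthrough reads over 18 nt. The RRTS of 115% in G418 A had an interval of 61.3% to 197%, and 0 reads in Untreated A allowed an RRTS of up to 53.4%, the upper limit of its interval, so the untreated level is not known closely. The log2 change was 3.63 (SE 3.25, adjusted p = 0.602). The 194 tested transcripts with a counted region of the same length had a pooled RRTS of 41.0% in G418 A.

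HSPB1 had 1, 2 and 16 readthrough reads, or 2.24%, 2.41% and 26.8% (interval in G418 A 15.3% to 43.5%; log2 3.41, SE 3.02, adjusted p = 0.602). HSPH1 had 4, 6 and 15 reads, or 12.6%, 14.7% and 37.7% (interval 21.1% to 62.2%; log2 1.44, SE 2.70, adjusted p = 0.844). The intervals of HSPH1 in the untreated libraries, 3.44% to 32.3% and 5.41% to 32.1%, overlapped that of G418 A, and its size was not ranked against the other genes.

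Transcripts with the same 4-nt stop signal give a closer comparison. In G418 A the pooled RRTS of the 338 tested transcripts ending in UAGG was 16.6%, and HSPA1B was above 94.4% of them and HSPA1A above 92.6%. Tested transcripts with the counted region length of HSPA1A (n = 126) had a pooled RRTS of 31.5% in that library. Those with the length of HSPA1B (n = 55) had 31.0%. Each of these pools includes the gene itself. For the other genes, DNAJB1 was above 95.9% of 342 UAGC transcripts, HSP90AA1 above 83.2% of 304 UAAU transcripts, HSPB1 above 78.1% of 662 UAAA transcripts and HSPH1 above 74.9% of 351 UAGA transcripts. All 6 were thus above the median for their own signal in G418 A. The places of DNAJB1, HSPH1 and HSPB1 rest on 13, 15 and 16 reads, and length of the region was not matched, so these are not a comparison of size. HSP90AA1, HSPB1 and HSPH1 stood higher among transcripts of their signal in both untreated libraries than in G418 A. The other listed genes stood lower in both. These places are not on the same scale, because many transcripts had no readthrough read. For UAAU these were 74.0%, 82.9% and 29.3% of transcripts in Untreated A, Untreated B and G418 A. For UAAA they were 75.7%, 77.9% and 35.2%, and for UAGA 76.4%, 78.3% and 22.2%. In an untreated library any read thus placed a gene above most transcripts of its signal. The part of this in the differences was not tested.

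Pooled over the 6 genes, readthrough was 4.14% and 2.68% in the untreated libraries and 68.3% in G418 A (exact Poisson 95% interval 63.4% to 73.4%). Over all transcripts tested it was 1.57%, 1.25% and 21.3%. The untreated mean of the 6 was 3.41% ± 1.03 (SD, n = 2), and G418 A was 16.5-fold above Untreated A and 25.4-fold above Untreated B. Over all transcripts the same folds were 13.6 and 17.1. HSPA1A and HSPA1B gave 635 of the 727 reads in G418 A, and without them the pooled values were 8.10%, 4.46% and 43.4%. The folds of the other 4 genes were then 5.36 and 9.75, below those over all transcripts while those of all 6 lay above them. No test between these folds was made.

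RPFs in the 3′UTR past the 3′TC mark ribosomes that went beyond the next in-frame stop codon, or that were there for another reason, and reading frame is not given in the tables. HSPA1B had 1, 4 and 179 such reads, which for the length of this part was 0.161%, 0.304% and 12.9% of the CDS density. HSPA1A had 3, 0 and 121 reads, or 0.631%, 0% and 11.3%. In Untreated B the absence of reads in HSPA1A allowed up to 0.362%, the upper limit of its exact Poisson 95% interval. Over all transcripts tested the pooled values were 0.178%, 0.158% and 0.858%, and in G418 A HSPA1B was above 95.3% and HSPA1A above 94.4% of transcripts. These copies have 4 and 6 in-frame stop codons in the listed 3′UTR.

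DNAJB1, with 20 in-frame stop codons in its 3′UTR, had 0, 7 and 53 reads past the 3′TC, or 0%, 0.761% and 7.37% of CDS density (interval in G418 A 5.52% to 9.64%). These reads lay over 1147 nt, so this value does not rest on a short stretch as its RRTS does. HSP90AA1 had 40, 18 and 285 such reads, or 0.561%, 0.172% and 3.54% (interval in G418 A 3.14% to 3.97%). Its untreated libraries again differed, with Untreated A the higher.

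HSPH1 was the exception. It had 20, 31 and 20 reads past the 3′TC, or 1.28%, 1.54% and 1.02% of CDS density, so that G418 A was the lowest library and its interval, 0.623% to 1.58%, overlapped both untreated ones. In both untreated libraries its interval lay above the pooled value of all transcripts. HSPB1 has 17 nt past its 3′TC, with 3, 1 and 5 reads, too few for a comparison.

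**Figure D5:**
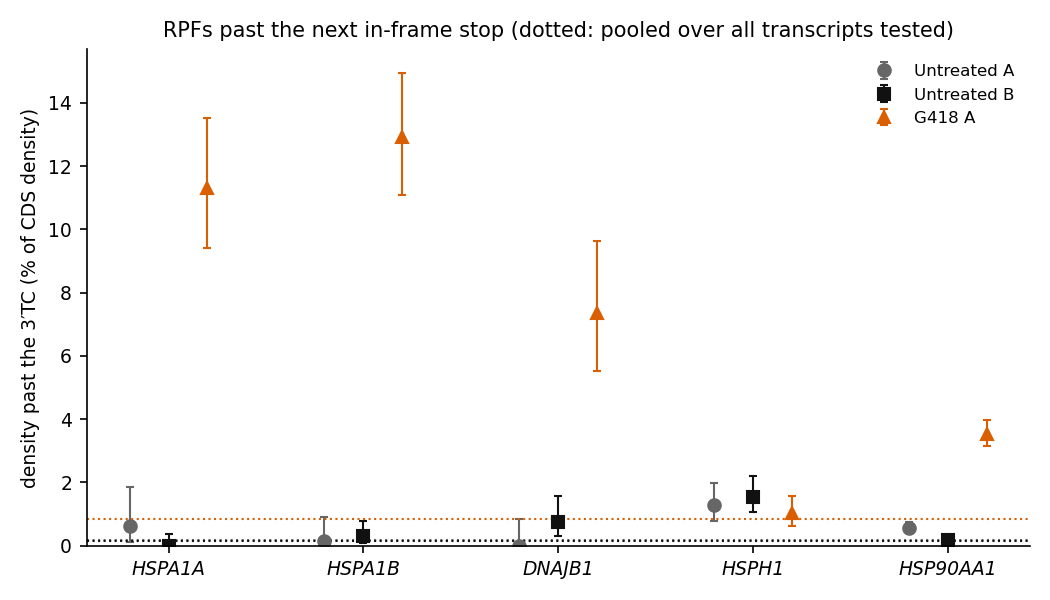
RPF density in the 3′UTR past the 3′TC (percentage of CDS density, vertical axis) of 5 listed genes, with 1 point per library, exact Poisson 95% intervals as bars and dotted lines for the pooled value of all transcripts tested. HSPA1A, HSPA1B, DNAJB1 and HSP90AA1 lie at 3.54% to 12.9% in G418 A, above both untreated points, and HSPH1 at 1.02% lies below them.

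Among the lists of related genes, the test of readthrough called 1 of the 12 other heat shock factor targets, the polyubiquitin gene UBB, which had 1, 2 and 128 readthrough reads and an RRTS of 0.394%, 0.45% and 39.2% (log2 6.40, edgeR adjusted p = 0.0098, and 0.531 with DESeq2). It called 0 genes in the lists of other Hsp70 and Hsp110 genes, other J-domain proteins, nucleotide exchange factors, other Hsp90 genes and co-chaperones, other small heat shock proteins and heat shock transcription factors. Pooled RRTS in G418 A was 7.66% over the other Hsp70 and Hsp110 genes, 12.1% over the other J-domain proteins, 11.2% over the other Hsp90 genes and co-chaperones and 27.8% over the nucleotide exchange factors. HSP90B1, whose CDS rose, had an RRTS of 4.63% and STUB1 of 5.13% in that library, and HYOU1 and DNAJC3 had no readthrough read in any of the 3.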

How the data were processed

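Per the study's methods, the authors collapsed duplicate reads by unique molecular identifier, removed reads of noncoding RNA, aligned the rest to hg38 with STAR (up to 200 positions allowed, primary alignment kept) and counted RPFs of 28 to 35 nt on 1 GENCODE 30 transcript per gene. The authors deposited RPM values, whole-number counts, RPKM densities and ratios (RRTS is a deposited ratio of RPKM densities). The first 18 and last 15 nt of the CDS were left out. All deposited RPM values were whole multiples of 1 read within 0.01, and reads recovered in this way were used, since deposited counts of CDS reads were 1 lower for 9080 of 9099 transcripts in Untreated A.

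The 5684 transcripts found in each of the 3 tables whose CDS reads averaged 128 or more were tested with edgeR 4.0.16 (quasi-likelihood, R 4.3.3), 2 libraries against 1, on the authors' total of reads, with Benjamini-Hochberg adjustment and a threshold of 0.05. DESeq2 1.42.0 was an alternative. Both were also run on simulated data. The changes planted there in CDS reads were larger than that of the HSPA1 pair, so the run does not bear on a change of that size. Approximate 95% intervals of a log2 change use the normal quantile and the SE. The labels do not say whether the untreated libraries came from separate cultures (the study calls its replicates biological), so p-values may measure technical spread. Shared read positions are 28-nt sequences of the GENCODE 44 models found in transcripts of another gene. The 6 genes and the lists were chosen with earlier results of these data known. All listed members are named, and from each list the genes past the test, up to 4, or else the largest rise and fall. Protein sequences were not used here.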

Additional observations from a re-analysis of the deposited data

How the results depend on the processing

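The 2 HSPA1 copies were called in CDS reads under TMM or DESeq2 scaling, a minimum mean of 20 CDS reads or none, and the deposited whole-number counts. Over all transcripts, 109 of 5684 were called higher under either scaling and 181 of 5684 with the deposited counts. With a minimum of 20 reads 196 of 8480 were called higher, and without a minimum 196 of 8812. With the DESeq2 Wald test or a minimum of 500 reads 0 of the 6 genes were called, although the changes were the same (0.65 for HSPA1A and HSPA1B). In readthrough both copies were called with every minimum and with library totals as offset. Over all transcripts, 74 of 8480 were called higher with a minimum of 20 reads and 74 of 8812 without one. With a minimum of 500 reads 182 of 2408 were called, and with library totals 114 of 5684. With DESeq2 0 of the 6 genes were called in readthrough (log2 5.07 for HSPA1A and 5.06 for HSPA1B). The cause was not tested. TMM and DESeq2 scaling turned HSPB1 to -0.056 and -0.059, values far from the threshold. Leaving out 1 untreated library gave CDS changes of 0.46 to 0.87 for HSPA1A and 0.47 to 0.85 for HSPA1B, with no test. The pooled readthrough of the 6 genes in G418 was 62.2% as a mean and 58.5% as a median of deposited ratios and 43.4% without the HSPA1 copies. In untreated cells the mean of deposited ratios was 5.51% and the value without the copies 6.28%, and leaving out 1 library gave 2.68% to 4.14%.

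No paired analysis was possible because the groups share only the letter A. With 1 G418 library, differences between cultures cannot be seen. Genes with under 20 readthrough reads (DNAJB1, HSPH1 and HSPB1) had intervals too wide for a comparison of size.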
